A study of Saccharomyces cerevisiae with 20 samples.

Results

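The effect of the Dcs1 step on NAD-RNA capture was read in 6 of the 20 libraries of the series, the 3 labelled as NADcapPro and the 3 labelled as SPAAC from WT cells, which were chosen by their labels and not by any measured value. WT is the budding yeast laboratory strain BY4741, a haploid MATa strain with deletions at HIS3, LEU2, MET15 and URA3, and all 6 libraries came from cells grown in rich YPD medium to exponential phase. The labels give the molecule as total RNA and describe polyA purification in their protocol, and the methods name polyA RNA from 3 independent biological replicates as the input, so how far RNAs without a poly(A) tail were removed is not known. Both groups were treated with ADPRC, and only the NADcapPro group was treated with Dcs1 beforehand. The xrn1-H41A strain carries an amino acid substitution in the exoribonuclease Xrn1. The study describes the mutant protein as deficient in removing NAD caps while it keeps its exoribonuclease activity. This strain gave a second set of 3 SPAAC and 3 NADcapPro libraries that shares no library with the WT set.

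NAD can stand at the 5′ end of an RNA in place of the m7G cap that marks most mRNAs of eukaryotes. ADPRC, a cyclase, exchanges the nicotinamide of NAD for an azide, a copper-free click reaction (SPAAC) joins biotin to the azide, and streptavidin beads recover the RNA. ADPRC can also act on m7G caps that are followed by adenosine, and Dcs1, the scavenger decapping enzyme, hydrolyses m7G caps, so NADcapPro places Dcs1 before ADPRC. The comparison asks which transcripts gain or lose share of the recovered RNA when m7G caps are removed first.

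The SPAAC libraries held 32811692 to 33816015 estimated counts and the NADcapPro libraries 28462212 to 30206709. LEU2 had 0 to 2 counts per library and MET17 (the MET15 gene) and URA3 had 0, while HIS3 had 5393 to 13045. The a-cell genes MFA1, MFA2, STE2, BAR1 and STE6 each had at least 3307 counts in every library, and the 4 α-cell markers MF(ALPHA)1, MF(ALPHA)2, SAG1 and STE3 each had 8 to 1093, a summed 0.00237% of SPAAC and 0.00638% of NADcapPro counts, whose part in any result was not tested. Replicates of a group differed by more than counting noise, with a biological coefficient of variation of 3.11%.

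With Dcs1 treatment the counts were spread over more transcripts. In SPAAC, 128, 129 and 134 transcripts held 50% of the counts of the 3 libraries. In NADcapPro, 364, 365 and 378 transcripts were needed, against 271 to 273 in standard WT RNA-seq. The edgeR quasi-likelihood test, with calls made at a 2-fold difference (1 on the log2 scale) and a Benjamini-Hochberg adjusted p no higher than 0.01, found 802 of 6017 transcripts higher in NADcapPro (13.3%) and 680 lower (11.3%), with TMM scaling between libraries. In all 1482 called transcripts the 3 SPAAC and 3 NADcapPro values did not overlap, so a lack of overlap adds nothing to a call. TMM places the bulk of transcripts near 0, with a median of 0.02. By library totals alone the same transcripts had a median of 0.63 and the test found 1996 higher and 196 lower, so 91.1% of the calls were higher against 54.1% with TMM. By library totals 77.7% of transcripts had a larger share in NADcapPro than in SPAAC. Log2 fold changes below are TMM-scaled, and 0.61 added to each gives the change of library share. Dcs1 was applied to purified RNA, so rises and falls are read as differences in recovered RNA and not as changes of expression in cells. A share of a library is not an amount of RNA.

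**Figure D1:**
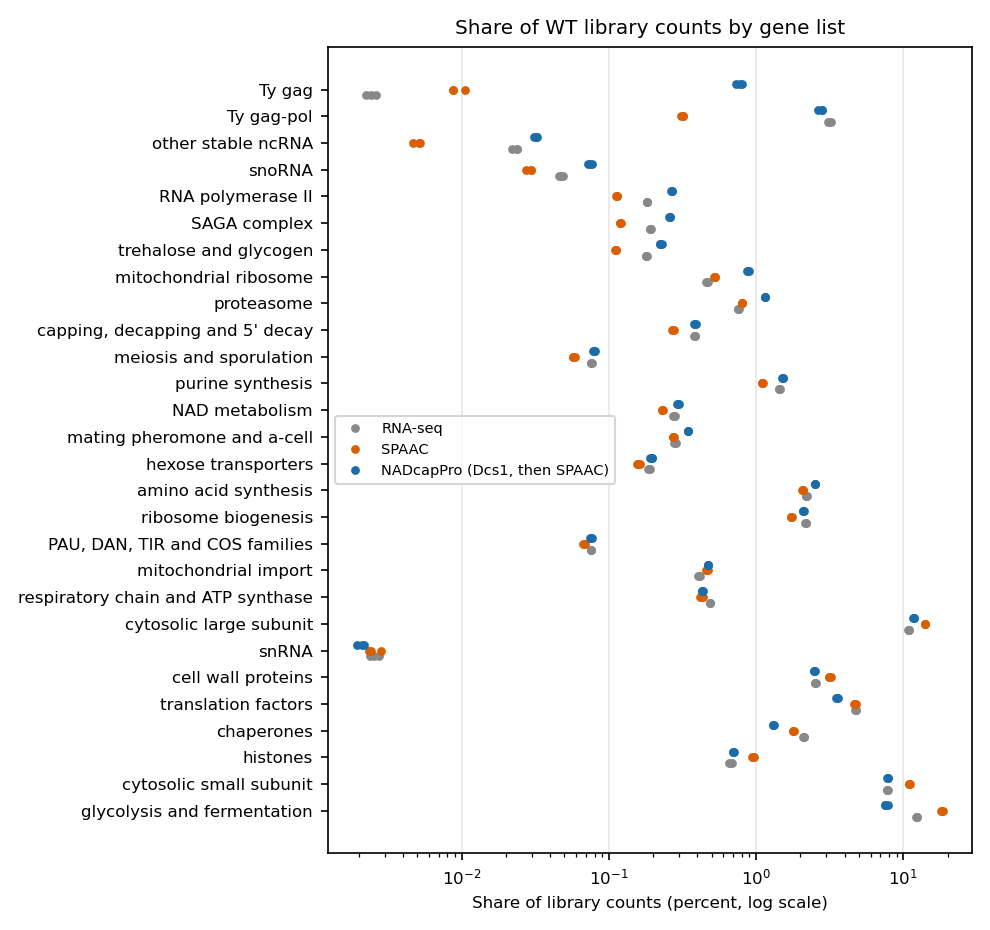
Share of WT library counts (percent, log scale) taken by each gene list, with 1 point per library for RNA-seq, SPAAC and NADcapPro. Glycolysis and fermentation falls from about 18.3% in SPAAC to 7.64% in NADcapPro, and the snoRNA, stable ncRNA and Ty sums are higher in all 3 NADcapPro libraries.

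The list that lost the most share with Dcs1 treatment was that of glycolysis, the pathway that breaks glucose down, and of fermentation to ethanol. Its 25 genes took 18.5%, 18.4% and 17.9% of the counts in SPAAC (18.3% ± 0.33 (SD, n = 3)). In NADcapPro they took 7.48%, 7.51% and 7.93% (7.64% ± 0.25 (SD, n = 3)), and in standard RNA-seq 12.3% ± 0.07 (SD, n = 3). The values of the groups did not overlap. An exact permutation test of 3 libraries against 3 cannot go below p = 0.10, so no p is given for shares.

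Of the 25 glycolytic and fermentation genes, 12 fell (48%) and 1 rose (4%), against 11.3% and 13.3% of all transcripts. Their median of -0.70 is -0.10 by library totals, where 7 fell and 4 rose, against 196 and 1996 of all 6017 transcripts. ENO2 (YHR174W, chromosome VIII, 451327 to 452640, plus strand of R64), an enolase, had 40079, 39383 and 37039 CPM (counts scaled by TMM to a common library size) in SPAAC and 5160.1, 5337 and 5456 in NADcapPro. Its log2 fold change was -2.87 ± 0.04 (SE, edgeR adjusted p = 7.25e-21). The 3 SPAAC libraries lay far above the 3 NADcapPro libraries. TDH3, the main glyceraldehyde-3-phosphate dehydrogenase and the transcript with the highest SPAAC CPM, had 60058, 59498 and 56411 CPM in SPAAC and 12373, 12578 and 14639 in NADcapPro, a change of -2.15 ± 0.06 (SE, edgeR adjusted p = 1.77e-17). TDH2, FBA1, ADH1, GPM1, PDC1 and TPI1 changed by -2.20, -2.03, -1.86, -1.66, -1.52 and -1.39, and all are among the 10 transcripts with the highest SPAAC CPM.

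Of the relatives of these enzymes, ENO1 and TDH1 missed the fold threshold. ENO1, the second enolase, had 2099, 2057 and 1972 CPM in SPAAC and 2360.4, 2352 and 2712 in NADcapPro, a log2 fold change of 0.28. TDH1 had 468, 457 and 453 CPM in SPAAC and 410.2, 420.0 and 428 in NADcapPro, a log2 fold change of -0.13 that is 0.47 by library totals and 0.01 in a fit of all WT libraries. ADH2, the alcohol dehydrogenase that is repressed while glucose is present, was the only member that rose. It had 18.1, 16.5 and 16.8 CPM in SPAAC and 88.9, 90.9 and 86.7 in NADcapPro, with a log2 fold change of 2.38 ± 0.05 (SE, edgeR adjusted p = 2.32e-19).

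The proteins of the cytosolic ribosome, the list with the most tested genes, had the largest number of falls of any list. By the share of members that fell, the histone list was above it (54.5%). Of 138 ribosomal protein genes, 70 fell (50.7%) and 3 rose (2.17%), against 11.3% and 13.3% of all transcripts (median -1.01). By library totals 37 fell and 13 rose, against 196 and 1996 of all 6017 transcripts (median -0.40). The small subunit had 29 lower and 0 higher of 56, and the large subunit 41 lower and 3 higher of 82. Their summed share of counts went from 25.1% in SPAAC to 19.7% in NADcapPro, against 18.6% in RNA-seq.

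Among small-subunit genes, RPS20 had 8788, 8569 and 8459 CPM in SPAAC and 1011, 1053 and 998 in NADcapPro, a log2 fold change of -3.08 ± 0.04 (SE, edgeR adjusted p = 3.64e-22). RPL3, which encodes a protein at the peptidyl transferase centre of the large subunit, fell by 1.53. The share of the large subunit in counts divided by effective length (TPM) moved the other way, from 24.2% in SPAAC to 26.4% in NADcapPro. Without RPL41A and RPL41B, whose coding sequences are very short, that TPM share was 21.8% in SPAAC and 21.9% in NADcapPro. The TPM share of the small subunit was 18.1% in SPAAC and 13.9% in NADcapPro.

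The 3 large-subunit transcripts that rose were RPL29, RPL21B and RPL41B. RPL29 (YFR032C-A, chromosome VI, 223258 to 223437, minus strand) had 464, 504 and 488 CPM in SPAAC and 2422, 2636 and 2696 in NADcapPro, a log2 fold change of 2.41 ± 0.04 (SE, edgeR adjusted p = 3.71e-20). RPL21B (YPL079W, chromosome XVI, 406636 to 407539, plus strand, 2 exons) had 1329, 1330.2 and 1282 CPM in SPAAC and 4816, 4971 and 4749.9 in NADcapPro, a change of 1.88 ± 0.03 (SE, edgeR adjusted p = 4.5e-20). The groups did not overlap in either gene, as in every called transcript. RPL41B rose by 1.66 (0.88 and not called with the trend on transcript length removed), but only 18.8% of its 31-mers occur in no other transcript, so its counts could be exchanged with those of RPL41A.

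Most ribosomal proteins of yeast are encoded by a pair of genes that make nearly the same protein, and the copies often differed. In 48 of 59 pairs, 50% or more of the 31-mers of each copy occur in no other transcript, so that their counts can be separated. Both copies fell in 12 of these pairs, one copy alone fell in 25 and neither copy passed in 10. The remaining pair, RPL21, had opposite calls, of which that of RPL21A was lost by library totals (-0.51). The median difference between copies was 0.80 on the log2 scale, and it was at least 1 in 20 pairs. In all 20 pairs the copies had the same order in the xrn1-H41A libraries.

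RPL8A had 1888, 1862 and 1805 CPM in SPAAC and 251, 266 and 269 in NADcapPro, while RPL8B had 3112, 2988 and 2978 in SPAAC and 3888, 3910.0 and 3804 in NADcapPro. Their log2 fold changes were -2.82 ± 0.03 (SE, edgeR adjusted p = 4.7e-22) and 0.35. RPL21A, the partner of RPL21B, had 2907, 2886 and 2859 CPM in SPAAC and 1278, 1384 and 1325 in NADcapPro, a change of -1.12. Thus RPL21A was above RPL21B in every SPAAC library and below it in every NADcapPro library. RPS28B fell by 3.39 on the log2 scale, while RPS28A had a value of -0.42 that did not pass and is 0.19 by library totals. RPL15A fell by 1.75, while the rare copy RPL15B had a value of 0.88 that did not pass.

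**Figure D2:**
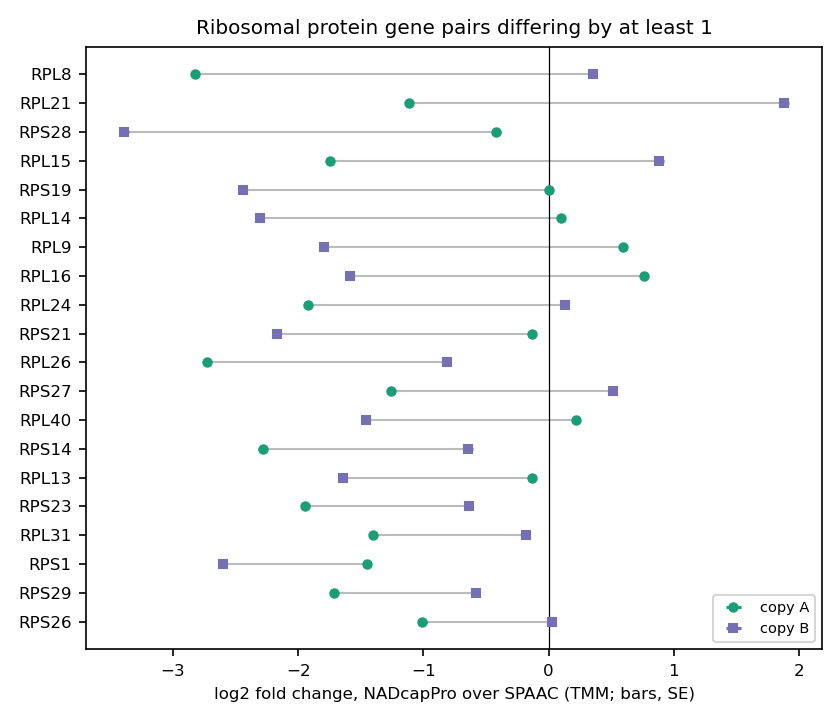
Log2 fold change, NADcapPro over SPAAC, of copy A and copy B of the 20 ribosomal protein gene pairs that differed by at least 1 (bars, SE, smaller than most symbols). RPL21 is the pair with opposite calls, with copy A at -1.12 and copy B at 1.88.

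Several other groups also had more falls than rises, where 13.3% of all transcripts rose and 11.3% fell. By library totals 1996 of all 6017 transcripts rose and 196 fell. Of 33 translation factors, 11 fell and 0 rose (median -0.67), against 4 and 1 by library totals (median -0.07), and their share of counts was 4.70% in SPAAC and 3.55% in NADcapPro. TIF35, a subunit of initiation factor eIF3, had 1056, 1039 and 1033 CPM in SPAAC and 211, 207 and 204 in NADcapPro, a change of -2.33. TEF2, which encodes elongation factor EF-1α, fell by 1.77 and its near-identical copy TEF1 had a value of -0.23, but only 4.6% of their 31-mers occur in no other transcript, so the split between them is uncertain. The sign of TEF1 turned by library totals, to 0.37.

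Of 11 histone genes, 6 fell and 0 rose (median -1.16), against 2 and 1 by library totals (median -0.55). HHT2, a histone H3 gene, had 2659, 2708 and 2727 CPM in SPAAC and 559.7, 586 and 559 in NADcapPro, a change of -2.25 ± 0.03 (SE, edgeR adjusted p = 2.83e-21). HHF2, the histone H4 gene beside it that is read from the other strand, had 701, 712 and 711 CPM in SPAAC and 975, 1026 and 1030.1 in NADcapPro, a value of 0.51 that did not pass and is 1.12, past the threshold, by library totals. The neighbours thus lay on opposite sides of 0.

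Among 26 chaperones, 9 fell and 1 rose (median -0.61), against 2 and 4 by library totals (median -0.00), with HSP12 the largest fall and HSP30, a stress-induced membrane protein, the rise of 1.70. Of 43 nuclear genes for the respiratory chain and ATP synthase, 12 fell and 1 rose (median -0.67), against 2 and 4 by library totals (median -0.06). Their summed share of counts did not fall, at 0.425% in SPAAC and 0.432% in NADcapPro. COX9, a small subunit of cytochrome c oxidase, fell by 1.77, and CYC7, the minor cytochrome c, rose by 1.27. Of 40 cell wall proteins, 10 fell and 4 rose, with a median of -0.52 that turns to 0.08 by library totals, where 3 fell and 9 rose. CWP2, a covalently linked cell wall mannoprotein, had 7365, 8314 and 7643 CPM in SPAAC and 1038, 1134 and 1131 in NADcapPro.

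**Figure D3:**
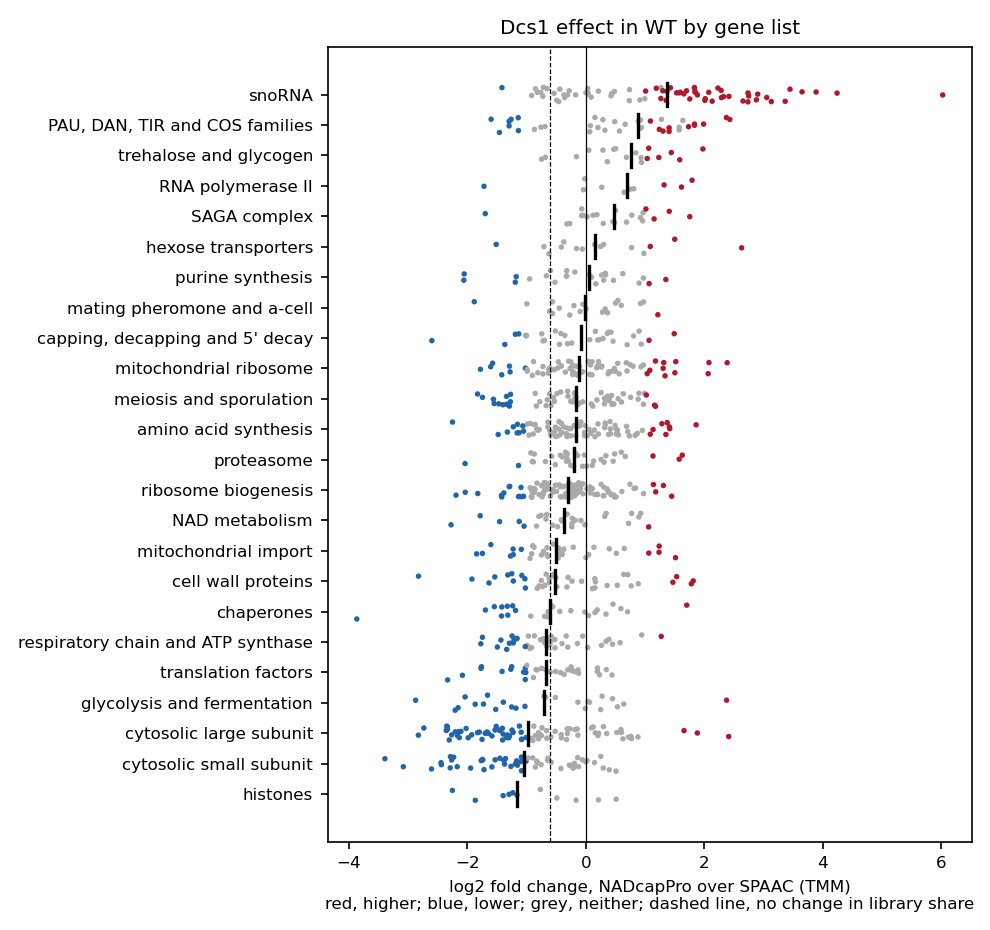
Log2 fold change, NADcapPro over SPAAC with TMM scaling, of every tested transcript in 24 gene lists (red, higher; blue, lower; grey, neither; black bar, list median). The dashed line marks no change of library share; the snoRNA list has a median of 1.36 and the histone list a median of -1.16.

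Among transcripts with a mean of at least 20 CPM and at least 50% of 31-mers of their own, the largest fall was that of YDR524C-B (chromosome IV, 1489598 to 1489798, minus strand), a small protein of unknown function. It had 8136, 8421 and 8086 CPM in SPAAC and 446, 481 and 478 in NADcapPro, a log2 fold change of -4.13 ± 0.04 (SE, edgeR adjusted p = 4.48e-23). HSP12 (YFL014W, chromosome VI, 107256 to 107585, plus strand), a small heat shock protein of membranes, had 109, 112 and 109.7 CPM in SPAAC and 7.9, 7.91 and 6.95 in NADcapPro, a change of -3.86 ± 0.05 (SE, edgeR adjusted p = 1.38e-21). Every SPAAC library was more than 10 times above every NADcapPro library in both genes. MIN9 fell by 3.49. ZEO1, a peripheral plasma membrane protein, fell by 2.79. KTI11, which takes part in diphthamide synthesis, fell by 2.78. FPR1, the peptidyl-prolyl isomerase that binds FK506, fell by 2.60.

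Under the same limits on CPM and shared sequence, the largest rise was that of YNL143C (chromosome XIV, 356794 to 357186, minus strand). It had 52.7, 68.4 and 62.0 CPM in SPAAC and 3845, 4216 and 3673 in NADcapPro, a log2 fold change of 6.0 ± 0.07 (SE, edgeR adjusted p = 4.7e-22). Of the 6098 transcripts found in the RefSeq R64 annotation, it is the only one with a run of at least 31 A or T, the length of the k-mers assumed here for the counting. The stretch around that run (chr14:356983-357074, chromosome XIV, minus strand) is shown because of this, with the 32 A of positions 143 to 174 of the coding sequence in capitals. Whether reads from poly(A) tails were counted there was not tested.
YNL143C: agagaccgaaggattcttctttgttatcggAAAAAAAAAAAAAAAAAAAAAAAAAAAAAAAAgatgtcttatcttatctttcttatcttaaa

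Other large rises were in genes of unrelated function. MOR1 (chromosome IV, 1212438 to 1212836, minus strand) had 66.0, 76.7 and 76.6 CPM in SPAAC and 889, 995 and 852 in NADcapPro, a log2 fold change of 3.64 ± 0.06 (SE, edgeR adjusted p = 1.36e-20). STP4, a zinc finger protein, had 16.4, 17.9 and 15.9 CPM in SPAAC and 176, 166 and 182 in NADcapPro, a change of 3.39 ± 0.05 (SE, edgeR adjusted p = 2.83e-21). The groups did not overlap in either gene, as the rule for naming them required. MTM1, a mitochondrial protein needed to load manganese into superoxide dismutase, rose by 3.26. MUP3, a low-affinity methionine permease, rose by 3.25, as did YKL070W.

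YPD1, the phosphorelay protein of the osmosensing pathway, rose by 3.01. TVP18, a Golgi membrane protein, DAD1, a subunit of the DAM1 kinetochore complex, and MVB12, a subunit of the endosomal complex ESCRT-I, rose by 2.93, 2.91 and 2.86. HUR1 rose by 3.82, but it overlaps PMR1 on the opposite strand, which rose by 1.19 (0.88 and not called with the length trend removed), and the libraries do not record strand, so reads of the overlap cannot be assigned to either.

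Most small nucleolar RNAs (snoRNAs) rose. These RNAs guide the modification of ribosomal RNA, box C/D snoRNAs for 2′-O-methylation and box H/ACA snoRNAs for pseudouridylation, and many are cut from longer precursors so that their mature 5′ end is not the start of transcription. Of 76 snoRNAs, 72 were tested, with a median of 1.36, and 1.97 by library totals. Of the 72, 41 rose (56.9%) and 1 fell (1.39%), against 13.3% and 11.3% of all transcripts. With the trend on transcript length removed from each library, 32 rose and 6 fell. Their summed share was small, at 0.0276%, 0.0295% and 0.0294% in SPAAC, 0.0724%, 0.0763% and 0.0750% in NADcapPro and 0.0473% ± 0.0016 (SD, n = 3) in RNA-seq.

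The sequences below show 3 box C/D snoRNAs that rose and the 1 snoRNA that fell, SNR24, from the RefSeq R64 annotation. SNR72 lies at chr13:298554-298651 (chromosome XIII, plus strand), SNR128, also called U14, at chr10:139566-139691 (chromosome X, minus strand), SNR47 at chr4:541602-541700 (chromosome IV, minus strand) and SNR24 at chr13:499984-500072 (chromosome XIII, minus strand). Capitals mark box C, searched as TGATGA on the given strand within the first 25 bases, and box D, searched as CTGA within the last 20. The box C letters were found in 36 of 45 box C/D snoRNAs (80%) and in 108 of all 6098 transcripts (1.77%), and the box D letters in 43 of 45 (95.6%) and in 627 of 6098 (10.3%). SNR24 had no match to the box C letters in that window.
SNR72: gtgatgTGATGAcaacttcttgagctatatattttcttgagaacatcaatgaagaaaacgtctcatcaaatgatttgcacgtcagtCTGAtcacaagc
SNR128: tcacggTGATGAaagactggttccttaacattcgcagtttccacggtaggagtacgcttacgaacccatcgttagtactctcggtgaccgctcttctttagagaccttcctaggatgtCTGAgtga
SNR47: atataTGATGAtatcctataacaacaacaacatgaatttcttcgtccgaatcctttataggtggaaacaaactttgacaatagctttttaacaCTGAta
SNR24: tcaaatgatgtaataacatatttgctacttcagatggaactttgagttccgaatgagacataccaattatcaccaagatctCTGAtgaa

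SNR72 had 0 to 3 counts in the SPAAC libraries and 114 to 146 in the NADcapPro libraries, and its fitted log2 fold change of 6.02 depends on the prior count because SPAAC was at or under 3 counts. SNR128 had 0.455, 0.637 and 0.288 CPM in SPAAC and 9.49, 8.77 and 7.89 in NADcapPro, a change of 4.24. SNR47 had 0.379, 0.675 and 0.683 CPM in SPAAC and 5.80, 6.13 and 6.15 in NADcapPro, a change of 3.37. SNR24 had 7 to 24 counts in the 6 libraries and fell by 1.41 (edgeR adjusted p = 0.00329). That call was lost by library totals, by a test against a 2-fold change, and without SPAAC replicate 1 or 3 or NADcapPro replicate 1 or 3, where its value lay between -1.38 and -1.22.

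The counts of rises are given by class. Of 41 box C/D snoRNAs tested, 29 rose and 1 fell (median 1.76, and 2.36 by library totals). Of 29 box H/ACA snoRNAs, 12 rose and 0 fell (median 0.09, and 0.70 by library totals). Neither copy of U3 passed. Within box H/ACA, 4 of the 18 whose mature sequence starts with A rose, with a median of -0.32 that turns to 0.28 by library totals, and 8 of the 11 with another first base rose. Within box C/D, 7 of the 8 that start with A rose. These counts were compared with no test of the difference between classes. Whether the captured RNAs carried the mature 5′ end, and so this first base, was not tested.

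SNR9, a box H/ACA snoRNA (chromosome XV, 407948 to 408134, minus strand), had 7.59, 6.71 and 6.51 CPM in SPAAC and 95, 102 and 110.4 in NADcapPro, a log2 fold change of 3.89 ± 0.07 (SE, edgeR adjusted p = 5.65e-20). SNR30, the box H/ACA snoRNA needed to cleave the precursor of the small-subunit rRNA, had 54.9, 60.3 and 56.4 CPM in SPAAC and 58.3, 63.2 and 61.6 in NADcapPro, a value of 0.09. The groups did not overlap for SNR9 and did for SNR30.

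For the 8 tested snoRNAs that lie inside introns, the value of the snoRNA can be set beside that of its host mRNA. SNR44 (chromosome XII, 856710 to 856920, plus strand), in an intron of the small-subunit gene RPS22B, had 2.47, 1.87 and 1.69 CPM in SPAAC and 24.2, 26.7 and 24.7 in NADcapPro, a change of 3.65, beside -0.89 for RPS22B. SNR191 rose by 2.42 and SNR38 by 2.33, while their hosts NOG2, a GTPase of ribosome assembly, and TEF4, a subunit of EF-1, had values of 0.20 and -0.12 that did not pass. The value of TEF4 turned to 0.49 by library totals. SNR54 and its host IMD4 both rose, by 1.70 and 1.35, the former to 0.99 and no longer called with the length trend removed. SNR39 and its host RPL7A had values of -0.91 and -0.89 that did not pass, though SNR39 passed without NADcapPro replicate 3 (-1.07) and with the length trend removed (-1.61). SNR59 had a value of -0.35 that did not pass and turns to 0.25 by library totals, and its host RPL7B fell by 1.29. SNR18 had a value of 0.91 that did not pass and its host EFB1, another subunit of EF-1, fell by 1.26. SNR24 and its host ASC1, a protein of the small ribosomal subunit, both fell, ASC1 by 2.23.

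**Figure D4:**
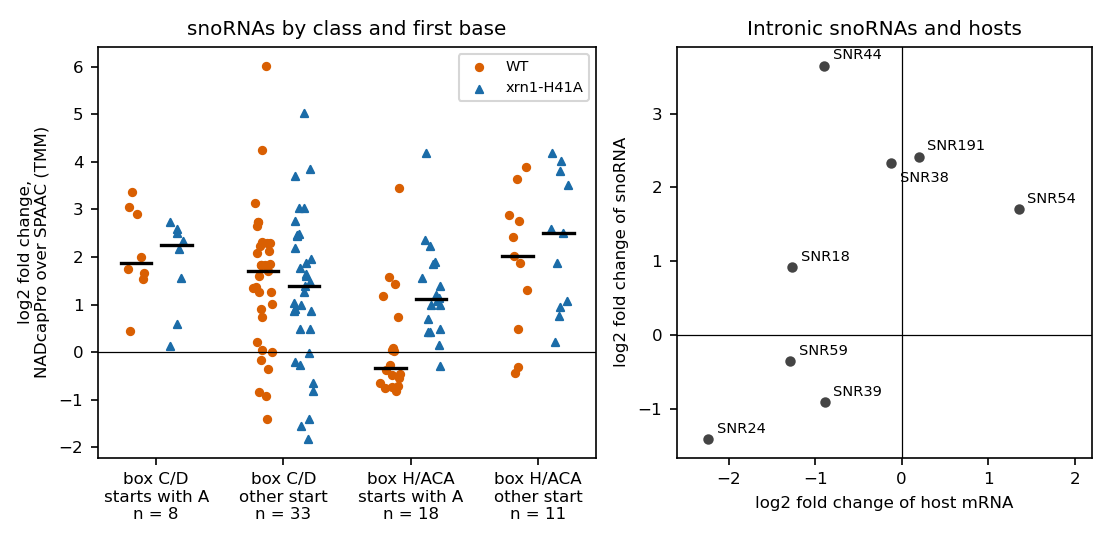
Left, log2 fold change (NADcapPro over SPAAC) of the 70 tested box C/D and box H/ACA snoRNAs in WT and in xrn1-H41A, by class and first base of the mature sequence (bars, medians). Right, the WT change of the 8 snoRNAs that lie in introns against that of the host mRNA; SNR44 is at 3.65 with its host at -0.89.

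Among other stable noncoding RNAs, TLC1, the RNA template of telomerase (chromosome II, 307587 to 308887, plus strand), had 52.1, 54.7 and 56.6 CPM in SPAAC and 239.6, 242 and 229.8 in NADcapPro, a change of 2.12 ± 0.04 (SE, edgeR adjusted p = 2.74e-20). RPR1, the RNA of RNase P, rose by 2.60. NME1, the RNA of RNase MRP, and SCR1, the RNA of the signal recognition particle, had values of 0.97 and 0.99, just short of the threshold. NME1 passed without NADcapPro replicate 3 or SPAAC replicate 2 or 3 (1.03 to 1.13), and SCR1 without NADcapPro replicate 1 or 2 or SPAAC replicate 2 (1.02 to 1.24). RPR1, NME1 and SCR1 had only 4.68 to 10.4 CPM in NADcapPro. Of 5 snRNAs tested, 1 rose and 2 fell, and LSR1, the U2 snRNA, fell by 1.17.

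Reads that matched rRNA were removed by the authors before counting, so rRNA values are remainders. Precursor, spacer and mature rRNA entries overlap and have 0% of 31-mers of their own, so only their sum is given. It was 0.0508% ± 0.0094 (SD, n = 3) in SPAAC, 0.130% ± 0.0016 (SD, n = 3) in NADcapPro and 0.462% ± 0.128 (SD, n = 3) in RNA-seq. By this count share the NADcapPro libraries were above SPAAC and below RNA-seq. As a TPM share the mean was 0.212% in SPAAC, 0.366% in NADcapPro and 0.119% in RNA-seq, so RNA-seq was then the lowest.

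The Ty retrotransposons took 0.327%, 0.322% and 0.330% of the counts in SPAAC and 3.52%, 3.6% and 3.42% in NADcapPro, a ratio of means of 10.8. Their RNA copies itself into DNA through the gag and pol products. In RNA-seq they took 3.15% ± 0.07 (SD, n = 3). Copies share nearly all of their sequence and gag is nested in gag-pol, so only sums are given. How the counts split between gag and gag-pol entries is uncertain for the same reason. The gag-pol entries summed to 0.317% in SPAAC, 2.74% in NADcapPro and 3.15% in RNA-seq. The gag entries summed to 0.00935% in SPAAC, 0.771% in NADcapPro and 0.00243% in RNA-seq.

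Some less abundant groups also had a larger share in all 3 NADcapPro libraries, as 77.7% of single transcripts did by mean. The 10 genes of RNA polymerase II had a summed share of 0.113% in SPAAC and 0.267% in NADcapPro. Of these genes, 3 rose (30%) and 1 fell (10%), against 13.3% and 11.3% of all transcripts. With the length trend removed 2 rose and 1 fell. RPB2, the second largest subunit, had 67.7, 64.4 and 65.7 CPM in SPAAC and 231, 231 and 224 in NADcapPro, a change of 1.79 ± 0.03 (SE, edgeR adjusted p = 5.6e-20). RPB8 rose by 1.32, while RPB9, a small subunit, fell by 1.72.

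The 22 genes of SAGA, a coactivator that acetylates and deubiquitinates histones, had a share of 0.120% in SPAAC and 0.259% in NADcapPro, with 4 higher (18.2%, against 13.3% of all transcripts) and 1 lower. With the length trend removed 2 were higher and 1 lower. SGF11, a subunit of its deubiquitinase module, had 28.8, 29.2 and 29.8 CPM in SPAAC and 98.7, 101 and 96.7 in NADcapPro, a change of 1.76 ± 0.04 (SE, edgeR adjusted p = 1.59e-18). TAF10 rose by 1.41, and ADA2, of the acetylation module, fell by 1.69. In the trehalose and glycogen list, 6 of 18 rose and 0 fell (median 0.77), and 3 rose and 0 fell with the length trend removed (median 0.54). The list took 0.111% of SPAAC and 0.225% of NADcapPro counts, and its higher share of 33.3% stands against 13.3% of all transcripts. GLG1, the glycogenin that primes glycogen chains, had 18.6, 18.6 and 17 CPM in SPAAC and 72.1, 70.7 and 70.4 in NADcapPro, a change of 1.98 ± 0.05 (SE, edgeR adjusted p = 5.88e-18).

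Most other lists had calls in both directions, many near the 13.3% higher and 11.3% lower of all transcripts. Of 74 mitochondrial ribosomal proteins, 11 rose (14.9%) and 7 fell (9.46%), with a median of -0.12 that turns to 0.49 by library totals. RSM19 rose by 2.39, MRPS18 rose by 2.07 and MRP21 fell by 1.78, all small-subunit proteins. Of 35 proteasome genes, 3 rose (8.57%) and 2 fell (5.71%), with a median of -0.20 that turns to 0.40 by library totals. PRE9 and PRE8 encode neighbouring types of subunit in its α ring. PRE9 had 173, 182 and 178 CPM in SPAAC and 544, 545 and 560.3 in NADcapPro. PRE8 had 294, 292 and 289.7 CPM in SPAAC and 69.5, 71.6 and 72.4 in NADcapPro. PRE9 thus rose by 1.63 and PRE8 fell by 2.03, with no overlap between the groups, as in every called transcript.

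Of 81 genes of amino acid synthesis, 8 rose (9.88%, and 5 genes with the length trend removed) and 9 fell (11.1%), with a median of -0.17 that turns to 0.44 by library totals. GLT1, glutamate synthase and a long gene, rose by 1.86, but its value was 0.57 and not called with the length trend removed, and ARO9, an aromatic aminotransferase, fell by 2.25. Of 25 purine genes, 2 rose (8%) and 4 fell (16%), with a median of 0.06 that is 0.67 by library totals. Of 107 ribosome biogenesis factors, 4 rose and 13 fell, with a median of -0.29 that turns to 0.32 by library totals. Of 39 tested PAU, DAN, TIR and COS genes, families near chromosome ends, 11 rose and 7 fell (median 0.89). TIR4 rose by 2.43 and COS6 fell by 1.59. The median share of k-mers that occur in no other transcript was 24.6% in this list, with 100% for TIR4 and 46.1% for COS6. Counts of members with shared sequence could be exchanged, so how they split between these genes is uncertain. Of 15 tested hexose transporters, 3 rose and 1 fell, and HXT2 fell by 1.51.

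Of 20 mating and a-cell genes, 1 rose and 1 fell. MFA1, the precursor of a-factor, fell by 1.88. Of 61 meiosis genes, 3 rose and 11 fell (18%), with a median of -0.17 that turns to 0.44 by library totals. By those totals 17 of the 61 rose and 2 fell, against 1996 and 196 of all 6017 transcripts. Of 34 genes of mitochondrial import, 4 rose and 7 fell (20.6%), with a median of -0.50 that turns to 0.10 by library totals.

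The genes that make, use or remove caps had no common direction. Of 30 genes for capping, decapping and 5′ decay, 2 rose (6.67%) and 5 fell (16.7%), against 13.3% and 11.3% of all transcripts. By library totals 8 rose and 1 fell, against 1996 and 196 of all 6017 transcripts, and their median of -0.08 turned to 0.52. DCS1 itself had 53.5, 52.5 and 57.6 CPM in SPAAC and 43.7, 44.2 and 40.4 in NADcapPro, a value of -0.35 that did not pass and turns to 0.25 by library totals. XRN1 had 101, 99.4 and 105 CPM in SPAAC and 195, 199 and 189.8 in NADcapPro, a value of 0.94 that missed the fold threshold and is 1.54, past it, by library totals. DCS2, a relative of DCS1, rose by 1.49, and EDC1, an enhancer of decapping, fell by 2.60.

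Of 28 genes of NAD metabolism, 1 rose (3.57%) and 5 fell (17.9%), against 13.3% and 11.3% of all transcripts. By library totals 5 rose and 2 fell, against 1996 and 196 of all 6017 transcripts, and their median of -0.36 turned to 0.25. PNC1, the nicotinamidase of the salvage pathway, had 193, 190.2 and 188 CPM in SPAAC and 391, 401 and 400.1 in NADcapPro, a change of 1.06. BNA2, the first enzyme of NAD synthesis from tryptophan, had 48.9, 49.7 and 43.9 CPM in SPAAC and 10.5, 9.97 and 8.97 in NADcapPro, a change of -2.27. Besides RPL21B and SGF11, the study followed up ENB1 and IMD4 by another method. ENB1, a ferric siderophore transporter, had 113, 118 and 113 CPM in SPAAC and 257, 250.4 and 248 in NADcapPro, a change of 1.13 ± 0.03 (SE, edgeR adjusted p = 2.51e-17). IMD4, an IMP dehydrogenase of guanine nucleotide synthesis, had 325, 321 and 322 CPM in SPAAC and 823, 838 and 807 in NADcapPro, a change of 1.35 ± 0.03 (SE, edgeR adjusted p = 5.05e-19).

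Annotated functions from the Gene Ontology were ranked by the share of their members called, as a description with no test, over terms with 15 to 200 tested members. The terms with the largest share higher were those of the snoRNAs, led by guides of 2′-O-methylation of rRNA with 25 of 31 (80.6%). The next kind of function was phospholipid translocation, with 6 of 15 members higher (40%). Its members included the flippases DNF1, DNF2, DNF3 and DRS2 and the flippase partner CDC50, which rose by 1.48, 1.09, 1.05, 1.11 and 1.13, and MDM35, a mitochondrial intermembrane protein of lipid transfer, which rose by 2.84. DNF1, DNF2, DNF3 and DRS2 are long genes too, and with the length trend removed their values were 0.54, 0.13, 0.05 and 0.36 and no longer passed. The terms with the largest share lower were translational elongation, with 10 of 17 (58.8%), and glycolytic process, with 9 of 16 (56.3%), followed by ribosomal subunits and cytoplasmic translation, with 53 of 110 (48.2%).

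The calls moved with how abundant a transcript was in separate libraries. In the lowest quartile of WT RNA-seq TPM, 18.4% of 1505 transcripts were higher and 6.05% lower. In the highest quartile, 9.18% of 1504 were higher and 24.0% lower. Without the ribosomal protein, glycolysis and translation factor lists, 10.2% of the 1320 transcripts left in the highest quartile were higher and 20.4% lower. The calls also moved with length. In the shortest quartile, up to 675 nucleotides, 17.9% were higher and 18.5% lower, and in the longest, from 1875 nucleotides, 17% were higher and 3.32% lower. Of 267 spliced transcripts 18 were higher and 82 lower, of which 1 and 45 were ribosomal protein genes.

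The same contrast was measured in xrn1-H41A, where 18.7% of 6039 transcripts were higher in NADcapPro than in SPAAC and 17.8% lower. Of 800 transcripts higher in WT and tested in both strains, 771 had a value above 0 in xrn1-H41A (96.4%) and 602 passed there. Of 677 lower in WT, 653 had a value below 0 (96.5%) and 499 passed. Opposite calls were made for 7 transcripts. Across 6006 transcripts, which are not independent replicates and share libraries within a strain, the log2 fold changes of the strains had a Pearson r of 0.85. The glycolysis and fermentation list went from 14.3% to 3.98% of the counts in xrn1-H41A.

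An interaction test over the 12 libraries found a higher log2 fold change in xrn1-H41A than in WT for 419 of 6058 transcripts (6.92%) and a lower one for 305 (5.03%). By library totals the counts were 582 and 193. Among ribosomal proteins 26 of 138 were lower and 0 higher (median difference -0.66), against 15 lower and 0 higher by library totals (median -0.51). Among amino acid synthesis genes 24 of 81 were lower and 1 higher (median -0.63), against 18 and 2 by library totals (median -0.49). Among 26 chaperones 11 were lower and 2 higher. Among 61 meiosis genes 15 were higher and 0 lower (median 0.78), against 26 and 0 by library totals (median 0.92).

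The box H/ACA snoRNAs had 15 higher and 1 lower of 29 (median 1.04, and 1.18 by library totals), while the box C/D snoRNAs had 2 higher and 3 lower of 45. SNR30 went from 0.09 in WT to 2.35 in xrn1-H41A, a difference of 2.32 (edgeR adjusted p = 7.85e-17). TLC1 went from 2.12 to 4.08, a difference of 2.02 (edgeR adjusted p = 7.85e-17). LSR1 went from -1.17 to 1.56, a difference of 2.78 (edgeR adjusted p = 2.08e-10). The 3 noncoding RNAs thus had a higher fold change in the mutant. STP4 and MUP3 had lower values there, 1.32 and 0.88, and HSP30 turned from 1.70 to -0.87. YNL143C had 6.0 in WT and 5.66 in xrn1-H41A, a difference of -0.28 that did not pass (edgeR adjusted p = 0.0533).

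**Figure D5:**
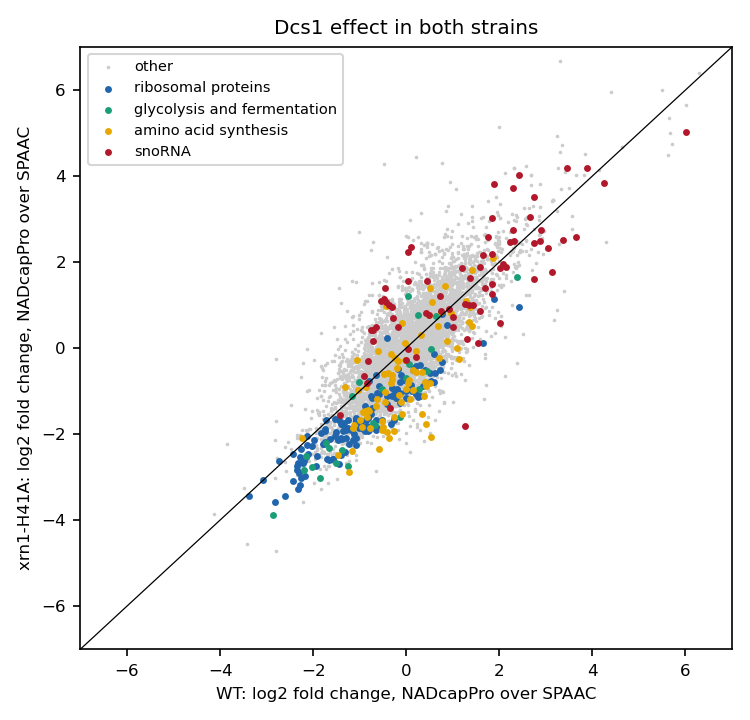
Log2 fold change, NADcapPro over SPAAC, in xrn1-H41A (vertical axis) against WT (horizontal axis) for 5973 transcripts within 7 of 0, with 33 outside the axes; the line marks equal values. Ribosomal protein (blue), glycolysis (green) and amino acid synthesis (yellow) transcripts lie mostly below the line, and the snoRNAs (red) on both sides of it.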

How the data were processed

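The deposited values are kallisto 0.48.0 estimated counts, rounded by the authors to whole numbers, against the RefSeq transcripts of R64, after trimming with fastp 0.23.2 and removal of reads that hisat2 aligned to rRNA. No length, strand or GC correction is described. The kit (SMART-Seq HT with Nextera XT) does not record strand. The table holds 6106 transcripts, of which 6098 were found in the reference with equal length and 0 are mitochondrially encoded. Deposited TPM values were not used, and TPM was recomputed from counts and effective lengths. Labels assign 18 libraries to strain and assay; 2 libraries of the table without ADPRC could not be tied to a strain and were not used.

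Counts were tested in R 4.3.3 with edgeR 4.0.16 (TMM, filterByExpr, glmQLFit, glmQLFTest, two-sided) on the 6 WT libraries, and the strain difference as an interaction over 12. In all, 89 transcripts fell under the filter. Thresholds, a log2 fold change of 1 and a Benjamini-Hochberg adjusted p of 0.01, follow the study, which used DESeq2. At an unadjusted p under 0.05, 5326 transcripts differed in WT. P-values measure only the spread between the 3 replicates, and counts without molecular identifiers give floors (3 counts) for counting error only. SE is the log2 fold change divided by the square root of F.

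Shared sequence was measured with 31-mers, the default of kallisto, since the length used is not given in the sources used here. The members of lists and the lists themselves were chosen with earlier results of these data known. Genes were named by a rule: the 12 largest rises and falls, the 10 highest in SPAAC, the extremes of each list, and genes the study follows. The largest rises and falls had to pass both thresholds with no overlap between the groups. They also needed a mean CPM of at least 20 and at least 50% of 31-mers of their own. The text leaves out rule-named genes whose values repeat those of their list, and 1 further gene is not reported here. PMR1, TEF1, TEF4, ENO1, TDH1, HHF2, the second copies of ribosomal protein pairs, the snoRNAs other than list extremes and their hosts, and the flippase genes were chosen after their values were seen. On simulated counts with 200 changed transcripts, the WT test recovered 200 with 0 false calls among 6014. The interaction test recovered 200 with 0 among 6048. All planted changes were larger than the 2-fold threshold, balanced in direction and placed in transcripts above a count limit. The simulation therefore cannot show recovery of changes near that threshold or at few counts. Recovery with as many changed transcripts as were called in WT, 802 higher and 680 lower, was not tested. Alternatives were other size factors, library totals, other filters, DESeq2 1.42.0 with and without apeglm 1.24.0, another threshold, glmTreat, a replicate block, removal of the trend on length (lowess), all WT libraries in one fit, a filter on shared 31-mers, TPM shares, and each library left out. The TPM share without RPL41A and RPL41B was added after seeing the data. Tables were made in Python 3.11.15 with pandas 2.3.3 and NumPy 2.4.6.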

Additional observations from a re-analysis of the deposited data

Results flagged for a closer look

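The Dcs1 effect differed between the strains by the interaction test for 419 transcripts with a higher and 305 with a lower log2 fold change in xrn1-H41A than in WT. Values below are the log2 difference, xrn1-H41A minus WT. No explanation was tested.

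Among mRNAs with a lower value in xrn1-H41A, glycolytic and fermentation genes were ADH1 at -1.11, PDC1 at -1.09, ENO1 at -1.16 and TDH1 at -1.41. Translation genes were TEF1 at -1.36, RPL29 at -1.40, RPL41B at -1.48, RPL8B at -1.18 and RPS27B at -1.03. Chaperones were HSP30 at -2.51 and SSB1 at -1.001. Other genes were ZEO1 at -1.87, STP4 at -2.01, MUP3 at -2.31, GLG1 at -1.07, PNC1 at -1.66, the cell wall gene PIR3 at -1.48 and the hexose transporter HXT6 at -1.33, whose sequence is shared with other transporters over most of its length.

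Transcripts with a higher value in xrn1-H41A were HSP12 at 1.68, YKL070W at 1.74, BNA2 at 1.66, ADA2 at 1.41 and MF(ALPHA)1 at 2.16, the last from 8 to 62 counts per WT library. Among noncoding RNAs, TLC1 had a difference of 2.02, SNR191 of 1.67, SNR30 of 2.32 and LSR1 of 2.78.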

How the results depend on the processing

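The scaling between libraries decided the balance of calls. By library totals alone, 1996 transcripts were higher and 196 lower in WT, and the strain difference had 582 higher and 193 lower. In a test against a 2-fold change, the strain difference had 158 higher and 171 lower. With single libraries left out in turn, the WT calls were 808 to 816 higher and 674 to 684 lower, and the strain differences 406 to 422 higher and 298 to 314 lower. All WT libraries in one fit gave 1015 higher and 516 lower. Signs turned by library totals for TEF1 (0.37), TDH1 (0.47), RPS28A (0.19), TEF4 (0.49), DCS1 (0.25) and SNR59 (0.25), in the fit of all WT libraries for TDH1 (0.0133) and TEF4 (0.0258), and with the length trend removed for TEF4 (0.017). As a TPM share in place of a count share, the difference between NADcapPro and SPAAC turned to 2.2 points for the large subunit (0.0565 without RPL41A and RPL41B), 0.00147 for snRNA and -0.483 for mating and a-cell genes. Of 744 refits of 124 transcripts chosen for naming without 1 library, 733 kept their call or lack of one, the 4 calls lost were all of SNR24, and the 7 gained were of NME1, SCR1 and SNR39. With the length trend removed 8 of the 124 lost their call and 4 gained one, and by library totals 11 lost and 8 gained one. Causes were not tested, apart from the scaling itself.

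No pairing of the libraries by replicate number was seen, though the values below cannot exclude that same-numbered libraries came from the same culture. Deviations of same-numbered SPAAC and NADcapPro libraries correlated at 0.05, 0.003 and -0.03, and not every library correlated best with its own number. In a fit blocked on replicate number, the WT calls were 803 higher and 681 lower and the strain differences 416 and 306, and 124 of the 124 chosen transcripts kept their call.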
